A study of Mus musculus with 25 samples.

Results

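The genes described here are 10 genes of the unfolded protein response and of protein folding in the endoplasmic reticulum (ER): Xbp1, Atf4, Ddit3, Hspa5, Hsp90b1, Pdia4, Pdia6, Sdf2l1, Creld2 and Dnajb9. They were chosen by name, with earlier results of these data known. All 10 were among the 23366 gene symbols of the table and among the 12251 genes that were tested. Prdm1 encodes Blimp-1, a transcription factor that supports secretion in plasma cells, and the question was whether its loss lowers these genes in CD8+ T cells. Expression was measured by bulk RNA sequencing in 25 libraries of CD8+ T cells taken from B16F10 melanomas, which are transplanted tumours, grown in C57BL/6 mice. There were 16 libraries labelled wild type (WT), 3 labelled Prdm1 cKO, 3 labelled c-Maf cKO and 3 labelled Prdm1/c-Maf cDKO. In conditional knockouts (cKO) the gene is removed only from chosen cells. The double knockout (cDKO) lacks Prdm1 together with Maf, the gene of the bZIP transcription factor c-Maf. The sources used here do not give the Cre line, the age or sex of the mice, or whether libraries came from separate animals, so p-values measure only the spread between libraries, which may be technical.

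The ER folds and modifies proteins that are secreted or placed in membranes. When unfolded proteins build up there, sensors in its membrane start the unfolded protein response. IRE1 splices the Xbp1 transcript into the form that encodes an active transcription factor, ATF6 is cut to release another, and PERK slows translation while favouring that of ATF4, which in turn can induce Ddit3 (CHOP). These factors raise chaperones, oxidoreductases and degradation factors of the ER, and plasma cells, in which Blimp-1 and XBP1 act together, are the best known example of a cell with high activity of this pathway. The table holds 1 value per gene symbol, so the spliced and unspliced forms of Xbp1 cannot be told apart, and neither can changes in the translation of Atf4.

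Genes of this response are known to carry the ER stress response element (ERSE) in their promoters, a paired site at which ATF6 and XBP1 act together with NF-Y. The letters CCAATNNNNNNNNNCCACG were searched on both strands in the 250 bases before the start of each gene in RefSeq's promoter table (build GRCm38.p6, a later build than that named for the expression table). Promoters of all 10 genes were matched by symbol. The element was found for 4 of the 10, Hspa5, Hsp90b1, Pdia6 and Creld2, and the letters were in 0.113% of all 32851 promoters. The 5 matches, of which Hsp90b1 has 2, are shown because 3 of these 4 genes were lower in cDKO cells and Hspa5 did not pass the test. Each is printed 5′ to 3′ on the gene's own strand with 20 bases on either side of it in lower case, and capitals mark the element.
Hspa5 (chr2:34772005-34772063, plus strand): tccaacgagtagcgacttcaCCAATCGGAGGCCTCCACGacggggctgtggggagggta
Hsp90b1, distal match (chr10:86705618-86705676, minus strand): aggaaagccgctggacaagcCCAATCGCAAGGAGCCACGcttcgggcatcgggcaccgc
Hsp90b1, proximal match, inverted (chr10:86705513-86705571, minus strand): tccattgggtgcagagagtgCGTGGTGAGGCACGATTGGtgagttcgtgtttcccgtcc
Pdia6 (chr12:17266471-17266529, plus strand): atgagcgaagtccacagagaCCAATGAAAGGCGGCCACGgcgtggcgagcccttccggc
Creld2, inverted (chr15:88819500-88819558, plus strand): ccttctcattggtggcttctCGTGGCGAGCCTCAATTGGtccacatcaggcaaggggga

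All 5 lie upstream of the annotated start. Sdf2l1, the gene with the largest fold change of the 10 in cDKO cells, had no match of these letters in its window. Other letters were searched on both strands in the same windows. ATTGGNCCACG (the ERSE-II form), TGACGTGG (the XBP1-type element UPRE), TGATGCAA (an amino acid response element read by ATF4 and CHOP) and AGNGAAAG (the core of the Blimp-1 site) each matched 0 of the 10 promoters. They matched 0.03%, 0.563%, 0.791% and 7.3% of all promoters. The ERSE-II and UPRE letters share their CCACG part with the ERSE on 1 strand and could overlap it. A match is a description of the letters and does not show that a factor binds there.

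The values are the authors' normalised signal, whose scale is not stated, and levels are compared within a gene only. Prdm1 itself averaged 15.5 ± 5.31 in WT (SD, n = 16), 17.0 ± 3.002 in c-Maf cKO (n = 3), 2.93 ± 2.24 in Prdm1 cKO (n = 3) and 3.05 ± 1.77 in cDKO (n = 3), and the 6 libraries labelled as lacking it lay below all 16 WT libraries. Maf was close to 0 in all groups, and C1, a library labelled c-Maf cKO, had 0.93, inside the WT range of 0.03 to 0.95. Libraries are named by the code in their column names. The columns of the table run in 3 blocks, each with some WT libraries and 1 knockout group, called here column sets 1 (7 WT, 3 Prdm1 cKO), 2 (4 WT, 3 c-Maf cKO) and 3 (5 WT, 3 cDKO). The labels do not say that they are batches, but 2.75% of the tested genes differed among the 3 sets of WT libraries alone (limma, Benjamini-Hochberg adjusted p under 0.05). In bulk libraries, fewer cells of a type and less RNA per cell cannot be told apart. The 7 CD8+ T cell markers were present in every group, with summed levels from 1138 to 3227 in WT (median 2421), 1426 to 1798 in Prdm1 cKO, 2415 to 2565 in c-Maf cKO and 1325 to 2513 in cDKO. Of the 7, 1 was called lower in cDKO, 0 in the single knockouts and 3 for the average effect of Prdm1 loss. Markers of B and plasma cells, of which plasma cells are rich in this pathway, summed to 0.92 to 27.55 in WT, 18.47 to 20.04 in Prdm1 cKO, 2.63 to 8.03 in c-Maf cKO and 8.72 to 16.19 in cDKO over 9 markers. Of these, Igj and Tnfrsf17 were listed at 0 in all Prdm1 cKO libraries, Igj, Tnfrsf17 and Ms4a1 in all c-Maf cKO libraries and Tnfrsf17 in all cDKO libraries, and of the 6 tested 1 was called higher in cDKO and 2 for the average effect of Prdm1 loss. The part of such cells in the results was not tested.

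**Figure D1:**
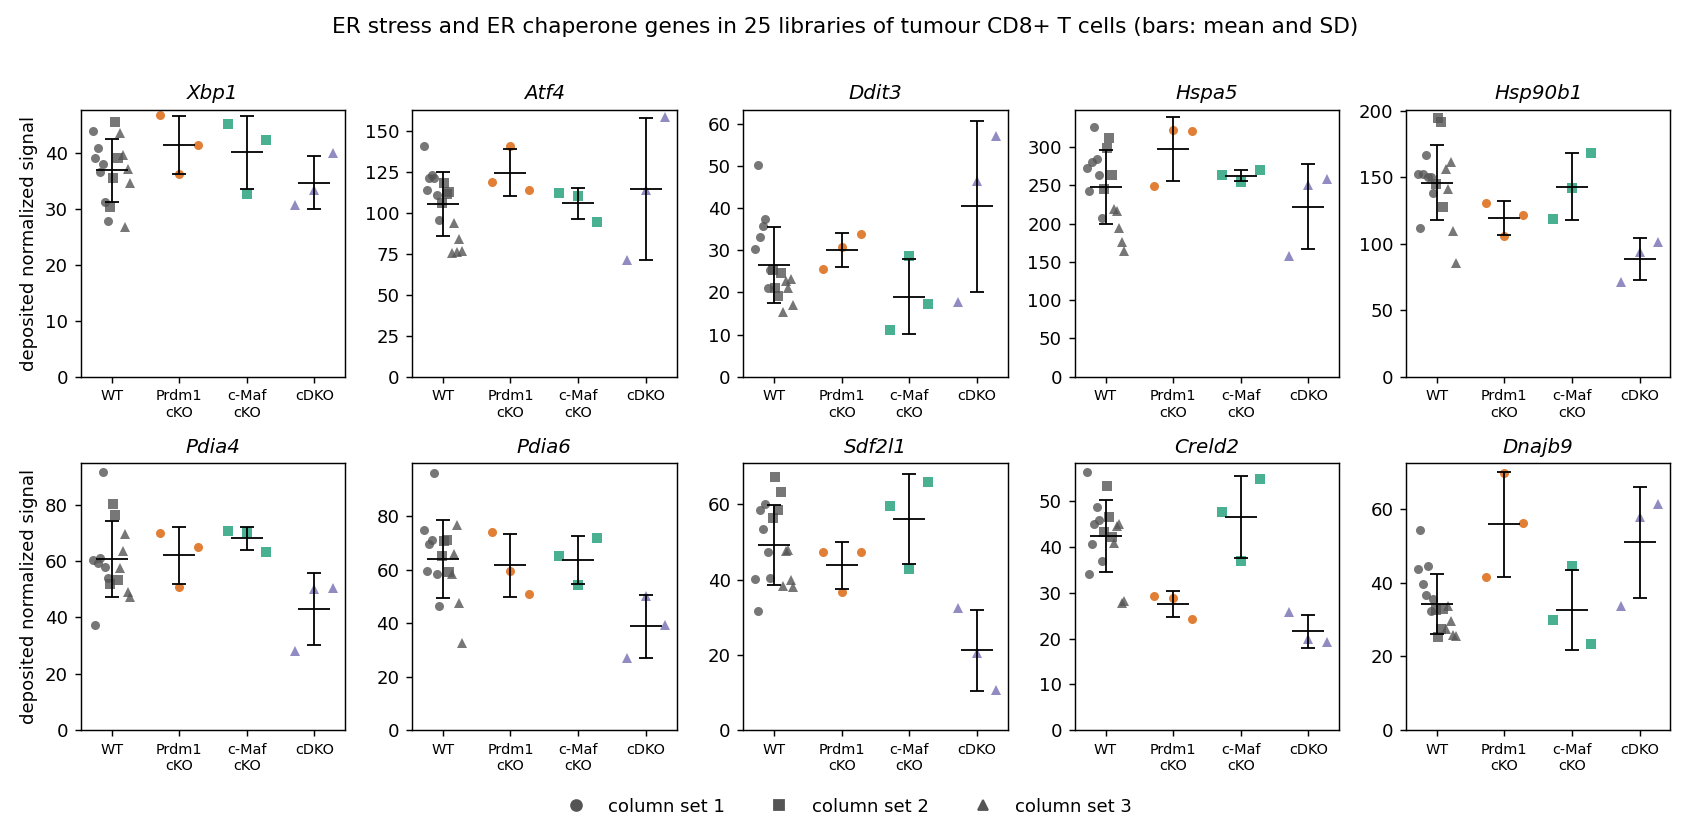
Deposited normalised signal (y axis, from 0) of the 10 genes in the 25 libraries, grouped along the x axis by genotype. Shapes give the column set, and bars give mean and SD. Creld2 was between 19.20 and 29.40 in the 6 libraries lacking Prdm1, and the cDKO library with the lowest Hspa5, Hsp90b1, Pdia4 and Pdia6 (C2) also had the lowest Ddit3 and Dnajb9 of its group.

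Some genes of the pathway were lower in cells lacking Prdm1, and its central genes were not called. In cDKO cells 4 of the 10 genes fell: by the fitted fold change Sdf2l1 was at 0.41, Creld2 at 0.52, Hsp90b1 at 0.62 and Pdia6 at 0.61 times the WT level. Xbp1, Atf4 and Hspa5, the transcription factors and the main ER chaperone of the response, did not pass the test in any knockout group. Dnajb9 went the other way and rose when the effect of Prdm1 loss was averaged over cells with and without c-Maf. In Prdm1 cKO cells only Creld2 passed the test, and in c-Maf cKO cells no gene of the 10 did. These calls depended on libraries and scale. In cDKO each of the 4 held under at least 33 of 41 other settings. Against WT of the same column set, or when rescaled to the CD3 genes, 0 of the 10 were called lower there. The call of Creld2 in Prdm1 cKO held under 11 of 41. The averaged call of Dnajb9 held under 35 of 39 and was lost with the column set or the code letter as a covariate.

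Fold changes are from limma on log2(value + 1), which understates changes of low values, in 1 fit of all 25 libraries. Calls need a Benjamini-Hochberg adjusted p under 0.05 over the 12251 genes, and errors of fold changes are standard errors (SE). In cDKO against WT, 4 of the 10 genes were called lower and 0 higher, where 6.85% of all tested genes were called lower and 5.09% higher. These shares include many genes of low value. Among the 6177 genes that reached 10 in 3 or more libraries, 879 were called lower and 500 higher, which are larger shares, and 4 of the 10 were again lower. The median log2 fold change of the 10 was -0.33, against -0.03 over all tested genes and -0.10 over those 6177. In Prdm1 cKO against WT, 1 of the 10 was called lower and 0 higher, where 1.87% of all genes were called lower and 1.58% higher, and the medians were 0.11 and -0.02. In c-Maf cKO against WT, limma called 0% of all genes in each direction and 0 of the 10; at an unadjusted p under 0.05 there were 755 genes, none of them among the 10. None of the 10 was called there under 40 other settings, that without C1 included. The medians there were 0.07 for the 10 and 0.00 over all genes.

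**Figure D2:**
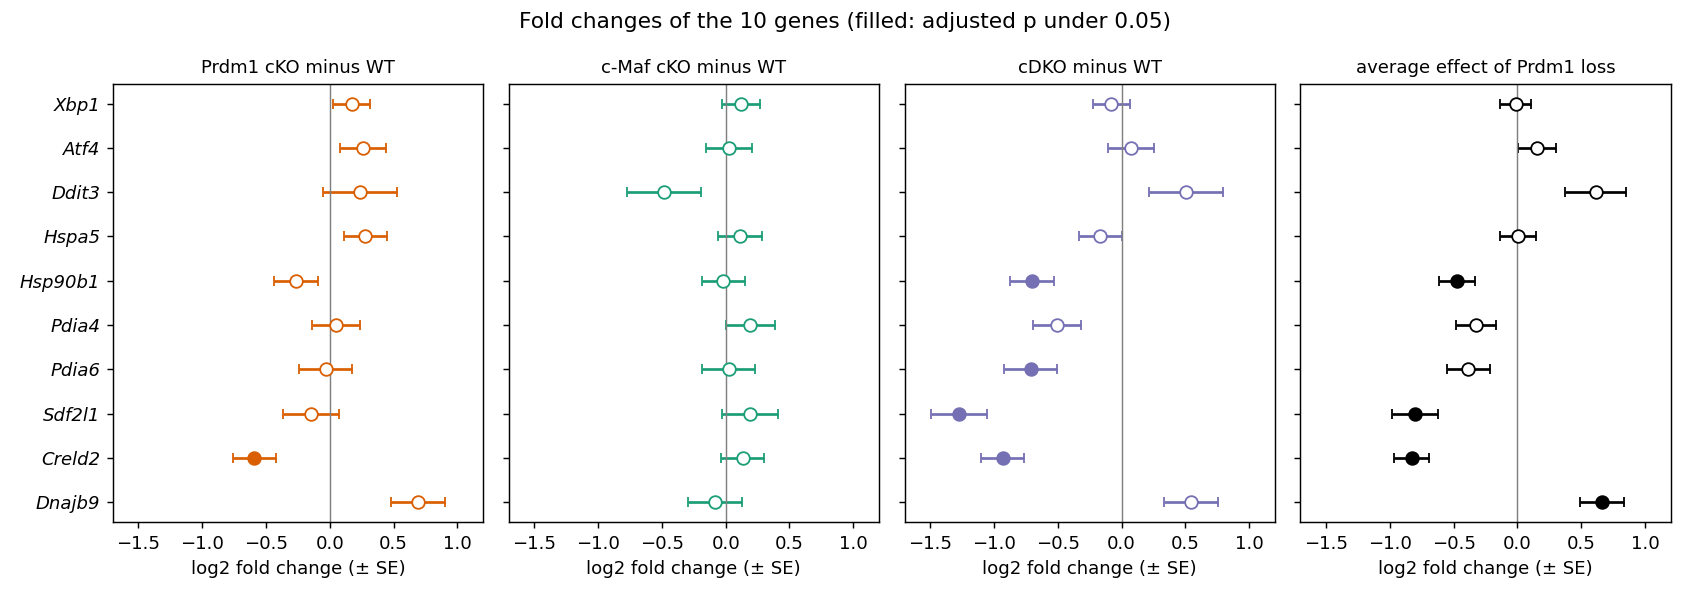
Log2 fold change with its SE (x axis) of the 10 genes (y axis) in the 3 knockout groups against WT and for the average effect of Prdm1 loss. Points are filled where the adjusted p was under 0.05; the cDKO panel has 4 of them, all below 0.

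Transcription factors of the response. Xbp1 encodes the factor made by the IRE1 branch. Its level in WT ran from 26.77 to 45.38 with a median of 37.56. The Prdm1 cKO libraries had 46.61, 36.14 and 41.34. It was at 45.15, 32.68 and 42.26 in c-Maf cKO and at 30.64, 33.34 and 39.89 in cDKO. All 9 knockout values but that of Prdm1 cKO A5 were inside the WT range. The log2 fold change was 0.17 ± 0.15 in Prdm1 cKO (adjusted p = 0.543), 0.12 ± 0.15 in c-Maf cKO (adjusted p = 0.882) and -0.08 ± 0.15 in cDKO (adjusted p = 0.807). An interval of 2 SE on either side ran from -0.37 to 0.21 in cDKO, so a fall of Xbp1 as large as that of Creld2 lay outside it.

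Atf4, the factor at the centre of the integrated stress response, had a WT range of 75.48 to 140.51 with a median of 111.08. It stood at 118.87, 140.51 and 113.84 in Prdm1 cKO and at 112.11, 110.13 and 94.46 in c-Maf cKO. The 3 cDKO libraries were spread over more than the WT range, with 71.26 in C2, 113.69 in A1 and 158.21 in A2. Its log2 fold change was 0.26 ± 0.18 in Prdm1 cKO (adjusted p = 0.443) and 0.07 ± 0.18 in cDKO (adjusted p = 0.861). WT libraries differed in Atf4 by column set, with means of 118 ± 13.7 (n = 7), 112 ± 4.97 (n = 4) and 81.2 ± 7.87 (n = 5) in sets 1, 2 and 3 (limma, adjusted p = 0.0109).

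Ddit3 encodes CHOP, which acts late in the response and can lead to cell death. In WT it ran from 15.36 to 50.25 with a median of 23.85. Its levels were 25.63, 30.70 and 33.75 in Prdm1 cKO and 11.19, 28.53 and 17.29 in c-Maf cKO. In cDKO the library C2 had 17.76, near the low end of WT, while A1 had 46.48 and A2 had 57.02, near or above its high end. The log2 fold change in cDKO was 0.51 ± 0.29 (adjusted p = 0.295), and without C2 it was 1.002 ± 0.302 (adjusted p = 0.0333). It was called under 2 of 41 other settings, over which it ran from -0.48 to 1.002. WT means of Ddit3 were 33.3 ± 9.43 (n = 7), 22.5 ± 2.94 (n = 4) and 19.9 ± 3.49 (n = 5) in column sets 1, 2 and 3 (limma, adjusted p = 0.0668). A1 and A2 share the code letter A with the WT libraries of set 1. Averaged over both backgrounds, the effect of Prdm1 loss was 0.61 ± 0.24 (adjusted p = 0.0785).

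Chaperones and oxidoreductases. Hspa5 encodes BiP, the Hsp70 chaperone of the ER lumen that also holds the stress sensors inactive. It ran from 164.17 to 325.41 in WT with a median of 254.09. The Prdm1 cKO libraries had 248.67, 322.67 and 320.24. Those of c-Maf cKO had 262.76, 254.77 and 269.64, and the level was 157.65, 249.72 and 258.29 in cDKO. Of the 9 knockout libraries, only the cDKO library C2 lay outside the WT range. Its log2 fold change was 0.28 ± 0.17 in Prdm1 cKO (adjusted p = 0.37) and -0.16 ± 0.17 in cDKO (adjusted p = 0.622), and the average effect of Prdm1 loss was 0.00 ± 0.14, with an interval of 2 SE from -0.28 to 0.28. WT libraries differed in Hspa5 as well, with means of 268 ± 36.9, 279 ± 30.7 and 194 ± 24.0 in column sets 1, 2 and 3 (n = 7, 4 and 5; limma, adjusted p = 0.0313).

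Hsp90b1 encodes GRP94, the Hsp90 of the ER, which folds integrins and Toll-like receptors. It ran from 85.92 to 194.72 in WT (146 ± 28.1, SD, n = 16). The Prdm1 cKO libraries had 131.05, 106.01 and 121.51, and the c-Maf cKO libraries had 118.43, 142.17 and 168.59. With 71.15, 94.04 and 101.09, the cDKO libraries were below 15 of the 16 WT libraries (88.8 ± 15.7, n = 3). Hsp90b1 fell in cDKO, with a log2 fold change of -0.70 ± 0.17 (adjusted p = 0.00744), and its value in Prdm1 cKO was -0.27 ± 0.17 (adjusted p = 0.395). The call in cDKO was lost without C2 (-0.55 ± 0.20, adjusted p = 0.0769) and with the column set as a covariate (-0.53, adjusted p = 0.0825).

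Pdia4 and Pdia6 encode protein disulphide isomerases, which form and rearrange disulphide bonds. Pdia6 ran from 32.48 to 96.27 in WT (63.9 ± 14.6, n = 16), and was 74.06, 59.63 and 51.05 in Prdm1 cKO and 65.20, 54.14 and 71.76 in c-Maf cKO. It was 26.91, 50.25 and 39.32 in cDKO (38.8 ± 11.7, n = 3), where 13 of the 16 WT libraries were above the highest of the 3. It fell in cDKO, with a log2 fold change of -0.71 ± 0.21 (adjusted p = 0.0228). This call was the least stable of the 4 in cDKO: the adjusted p was 0.211 without C2, 0.0944 without A2, 0.2 with the column set, 0.0564 with the macrophage marker score and 0.0822 with the erythroid marker score as a covariate.

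Pdia4 ran from 37.23 to 91.54 in WT with a median of 58.66. The Prdm1 cKO libraries had 70.07, 50.82 and 65.13. It was at 70.53, 70.44 and 63.24 in c-Maf cKO and at 28.17, 50.20 and 50.55 in cDKO. The cDKO library C2 was below all WT libraries, and the other two were inside their range. Its log2 fold change in cDKO was -0.50 ± 0.19 and did not pass the test (adjusted p = 0.0835), except without the WT library A4 (-0.55, adjusted p = 0.0367).

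Smaller folding factors of the ER. Sdf2l1 encodes a partner of BiP that keeps unfolded proteins from aggregating. It ran from 31.76 to 67.18 in WT (49.3 ± 10.6, n = 16). The Prdm1 cKO libraries had 47.33, 36.64 and 47.46, and the c-Maf cKO libraries had 59.48, 42.78 and 65.96. In cDKO it was 32.35 in C2, 20.41 in A1 and 10.80 in A2 (21.2 ± 10.8, n = 3). Only the WT library with the lowest level was below C2, and A1 and A2 were below all WT libraries. Sdf2l1 fell in cDKO, with a log2 fold change of -1.27 ± 0.22 (adjusted p = 0.000452), and its value in Prdm1 cKO was -0.15 ± 0.22 (adjusted p = 0.761).

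Creld2 encodes a disulphide isomerase-like protein of the ER that is secreted under stress. In WT it ran from 27.72 to 56.36 (42.5 ± 7.86, n = 16). It was 47.64, 37.02 and 54.84 in c-Maf cKO. The Prdm1 cKO libraries had 29.40, 28.84 and 24.21 (27.5 ± 2.85, n = 3), and 14 of the 16 WT libraries were above all 3. The cDKO libraries had 25.77, 19.81 and 19.20 (21.6 ± 3.63, n = 3), below all 16 WT libraries. Creld2 was thus the gene of the 10 that stood low in both groups lacking Prdm1.

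The log2 fold change of Creld2 was -0.93 ± 0.17 in cDKO (adjusted p = 0.000707) and -0.59 ± 0.17 in Prdm1 cKO (adjusted p = 0.0479), called lower in both. The second call was close to the threshold and was kept under 11 of 41 other settings, though the log2 fold change stayed below 0 under all 41 (-0.75 to -0.12). Within column set 1 alone it was -0.65 (adjusted p = 0.145), and with the macrophage marker score as a covariate it was -0.75 (adjusted p = 0.156). Without the Prdm1 cKO library A9 it was -0.51 (adjusted p = 0.246), and without A6 the adjusted p was 0.131.

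Dnajb9 encodes ERdj4, a J-domain co-chaperone of BiP that is a well known target of XBP1 and aids degradation. It ran from 25.11 to 54.14 in WT (34.1 ± 8.08, n = 16) and was 29.86, 44.52 and 23.24 in c-Maf cKO. It was 41.43, 69.68 and 56.11 in Prdm1 cKO (55.7 ± 14.1, n = 3) and 33.55, 57.79 and 61.20 in cDKO (50.8 ± 15.1, n = 3). Of the 6 libraries lacking Prdm1, 4 were above all 16 WT libraries, and these 4 (A6, A9, A1 and A2) all had the code letter A. WT means of Dnajb9 were 40.9 ± 7.29 (n = 7), 29.5 ± 3.85 (n = 4) and 28.4 ± 3.38 (n = 5) in column sets 1, 2 and 3 (limma, adjusted p = 0.0574). The WT libraries of set 1 also have the letter A, and those of sets 2 and 3 have the letter B. Neither group passed the test on its own, with log2 fold changes of 0.69 ± 0.21 in Prdm1 cKO (adjusted p = 0.0592) and 0.55 ± 0.21 in cDKO (adjusted p = 0.095). Without C2 the change in cDKO was 0.82 ± 0.24 (adjusted p = 0.0274), and with the column set as a covariate it was 0.78 (adjusted p = 0.0214). Most settings gave no call: Dnajb9 was called in cDKO under 6 of 41 other settings and in Prdm1 cKO under 8 of 41. Over these settings its log2 fold change ran from 0.0085 to 0.97 in cDKO and from 0.42 to 1.17 in Prdm1 cKO.

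Prdm1 loss over both backgrounds. The mean of the 2 effects of Prdm1 loss, with c-Maf present (Prdm1 cKO against WT) and absent (cDKO against c-Maf cKO), called 3 of the 10 genes lower and 1 higher, where 10.2% of all tested genes were called lower and 6.74% higher. Among the 6177 genes that reached 10 in 3 or more libraries, 1161 were called lower and 563 higher, which are larger shares. The log2 values were -0.83 ± 0.14 for Creld2 (adjusted p = 0.000275), -0.81 ± 0.18 for Sdf2l1 (adjusted p = 0.00291) and -0.47 ± 0.14 for Hsp90b1 (adjusted p = 0.0196). Dnajb9 rose by 0.66 ± 0.17 (adjusted p = 0.00932). The median of the 10 was -0.17, against 0.00 over all genes and -0.09 over those 6177. With the column set as a covariate only Creld2 kept its call (-0.69, adjusted p = 0.0143); the other values were -0.51 for Sdf2l1 (adjusted p = 0.178), -0.31 for Hsp90b1 (adjusted p = 0.338) and 0.56 for Dnajb9 (adjusted p = 0.0985). Erythroid markers were higher in this contrast too (5 of 6 tested called), and with their score as a covariate Creld2 again kept its call (-0.73, adjusted p = 0.0205), while Sdf2l1 (-0.66, adjusted p = 0.0998), Hsp90b1 (-0.58, adjusted p = 0.0645) and Dnajb9 (0.52, adjusted p = 0.179) did not. With the code letter as a covariate, Creld2 and Sdf2l1 kept their calls, and Hsp90b1 (adjusted p = 0.0511) and Dnajb9 (0.38, adjusted p = 0.115) did not. Leaving out both A1 and A2 leaves C2 alone in the cDKO group, so only effect sizes are given. Sdf2l1 then had -0.45 and Dnajb9 0.39, and the median of the 10 was -0.34. With 1 library left out, the call of Hsp90b1 was lost without A6 (adjusted p = 0.0618), without C1 (adjusted p = 0.0654) and without C2 (adjusted p = 0.0595).

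In cells without c-Maf, cDKO against c-Maf cKO, 3 of the 10 genes were called lower and 0 higher, where 5.61% of all genes were called lower and 3.78% higher. Among the 6177 genes that reached 10 in 3 or more libraries, 746 were called lower and 379 higher, and 4 of the 10 were lower. The log2 values were -1.47 ± 0.29 for Sdf2l1 (adjusted p = 0.00253), -1.07 ± 0.22 for Creld2 (adjusted p = 0.00352) and -0.68 ± 0.22 for Hsp90b1, whose adjusted p of 0.04998 was just under the threshold. The call of Hsp90b1 was kept under 8 of 39 other settings, and those of Sdf2l1 and Creld2 under 35 each. Without the library C1, whose Maf level was that of WT, the values were -1.34 for Sdf2l1 (adjusted p = 0.0187), -0.94 for Creld2 (adjusted p = 0.0266) and -0.56 for Hsp90b1 (adjusted p = 0.186). With the column set as a covariate they were -0.94 (adjusted p = 0.216), -0.73 (adjusted p = 0.218) and -0.34 (adjusted p = 0.682). All 3 calls were also lost with the erythroid marker score as a covariate (adjusted p = 0.0609, 0.0719 and 0.109). Without both A1 and A2, which leaves C2 alone in its group, the values were -0.75 for Sdf2l1, -0.81 for Creld2 and -0.98 for Hsp90b1. Ddit3 had the largest positive value, 0.99 ± 0.38 (adjusted p = 0.0978), and without C2 it was called higher (1.49, adjusted p = 0.0117); Dnajb9 was then called too (0.90, adjusted p = 0.0456). These comparisons share libraries with those against WT and are not independent of them.

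Whether the cDKO differs from the single knockouts was tested directly. The effect of losing both genes, less the sum of the effects of losing each, was below 0 for 9 of the 10 genes, with a median of -0.45 against 0.00 over all genes, and none of the 10 passed the test. By limma it called 0.00816% of all genes lower and 0% higher; at an unadjusted p under 0.05 there were 1436 genes, 3 of them among the 10. The lowest value was that of Sdf2l1, -1.32 ± 0.36 (adjusted p = 0.139). Against Prdm1 cKO, a contrast added after seeing the data, cDKO libraries had lower fitted values for 9 of the 10 genes, and none passed (0.327% of all genes called lower, 0.0653% higher; 3 of the 10 had an unadjusted p under 0.05 in limma); Sdf2l1 had -1.13 ± 0.29 (adjusted p = 0.0688). That 4 genes passed against WT in cDKO and 1 in Prdm1 cKO is therefore not shown to be a difference between these knockouts.

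The 3 cDKO libraries were unlike each other. C2 had the lowest Hspa5, Hsp90b1, Pdia4, Pdia6, Xbp1, Atf4, Ddit3 and Dnajb9 of the 3 and the highest Sdf2l1 and Creld2. A1 and A2 shared the code letter A with the 7 WT libraries of column set 1 and the Prdm1 cKO libraries, and C2 had the letter C. Summed signal of 7 erythroid markers was 463 in C2, 2275 in A1 and 4254 in A2, against a WT median of 180 and a range of 1.38 to 1568; 4 of the 6 tested erythroid markers were called higher in cDKO, and none was at 0 in all cDKO libraries. With the erythroid marker score as a covariate, Sdf2l1 (-1.12, adjusted p = 0.0248), Creld2 (-0.82, adjusted p = 0.0309) and Hsp90b1 (-0.82, adjusted p = 0.0324) kept their calls in cDKO against WT and Pdia6 did not. Leaving out both A1 and A2 leaves C2 alone in its group and assumes that it varies like the other libraries, so effect sizes are given here. Sdf2l1 then had -0.56, Creld2 -0.68, Hsp90b1 -1.001 and Pdia6 -1.18, while Ddit3 had -0.48 and Atf4 -0.53. Against the 5 WT libraries of column set 3 alone, 0 of the 10 were called in cDKO, where 97 of 12251 genes were called lower and 232 higher. With so few calls over all genes, the 0 says little about the 10. Sdf2l1 had -1.08 (adjusted p = 0.0761) and Creld2 -0.74 (adjusted p = 0.106) in this limma fit.

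The scale of the libraries also mattered. When libraries were rescaled to equal signal of the CD3 genes, the median of all tested genes moved to 0.31 in cDKO, 0.37 in Prdm1 cKO and 0.44 for the average effect of Prdm1 loss. The split of all calls moved with it, from 624 higher and 839 lower to 956 and 184 in cDKO, from 194 and 229 to 521 and 58 in Prdm1 cKO, from 826 and 1251 to 2878 and 201 for the average, and from 463 and 687 to 929 and 113 for cDKO against c-Maf cKO. No gene of the 10 was called lower on that scale. In cDKO Sdf2l1 had -0.87 (adjusted p = 0.0614), Creld2 -0.52 (adjusted p = 0.286), Pdia6 -0.29 and Hsp90b1 -0.27, all still below the median of all genes. In the average effect of Prdm1 loss, Dnajb9 (1.22, adjusted p = 0.00473), Ddit3 (1.16, adjusted p = 0.0218) and Atf4 (0.72, adjusted p = 0.0425) were called higher, and Hsp90b1 turned from -0.47 to 0.09 (adjusted p = 0.784). Of the called values of the 10 genes, that of Hsp90b1 in the average effect was the only one to turn on this scale.

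**Figure D3:**
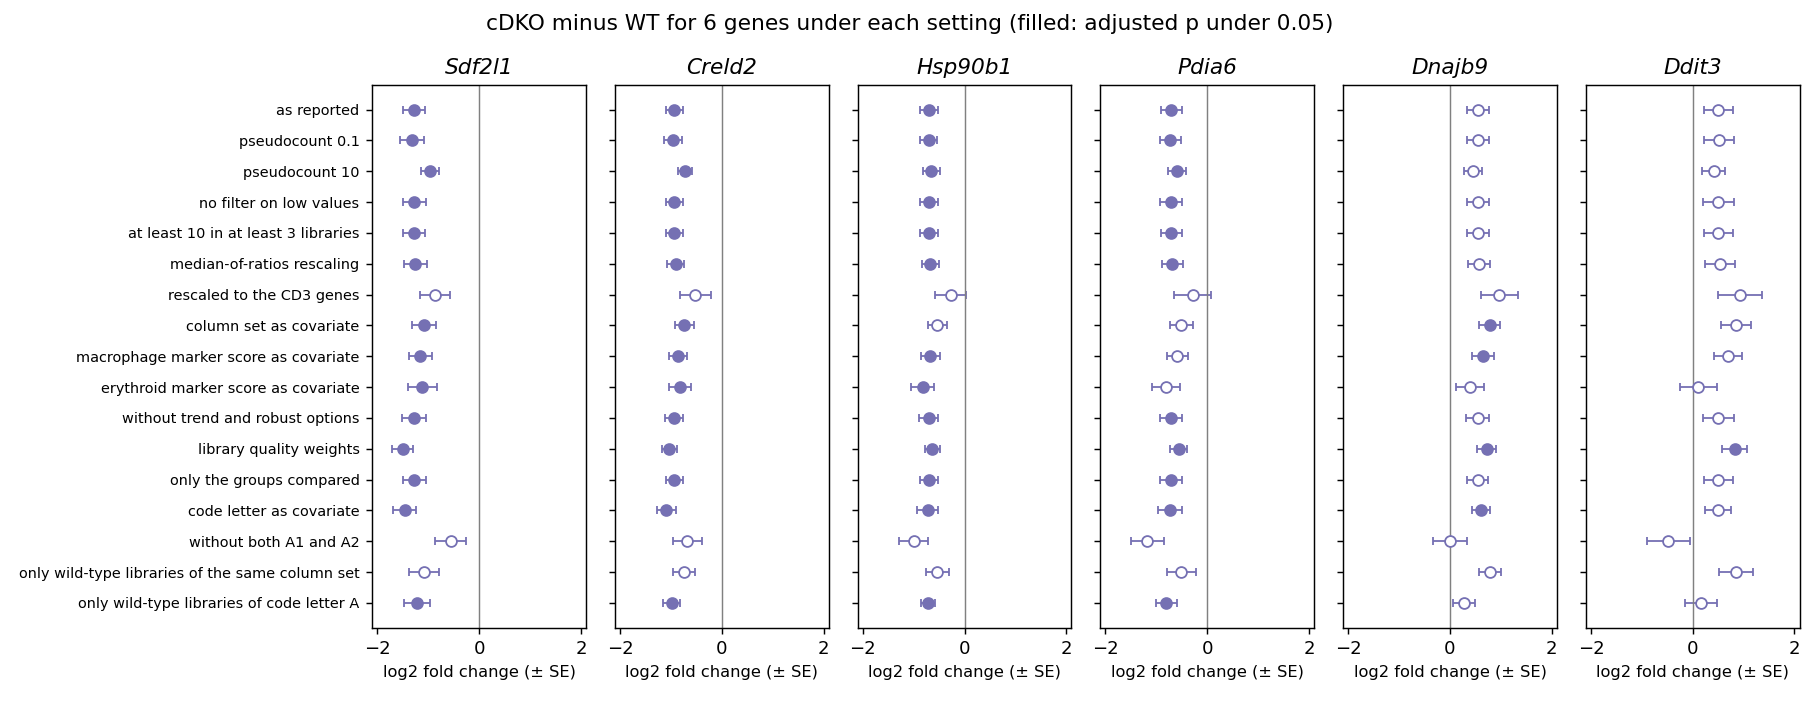
Log2 fold change of cDKO against WT with its SE (x axis) for 6 genes under the reported fit and each other setting (y axis); a filled point marks an adjusted p under 0.05. Sdf2l1, Creld2, Hsp90b1 and Pdia6 are below 0 in every row, with no filled point when rescaled to the CD3 genes, without both A1 and A2, or against WT libraries of the same column set.

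Other genes of the ER and of secretion. In cDKO cells the listed genes that fold, translocate and glycosylate new proteins were lower more often than higher. No stress sensor was called in the reported fit. The lists were drawn up with earlier results of these data known, so their counts describe the listed genes and are not a test of the pathway. Of 20 further ER chaperones and folding factors, 6 were called lower and 0 higher, where 6.85% of all tested genes were called lower and 5.09% higher. These shares hold for each list in cDKO. The median log2 fold change was -0.19, against -0.03 over all genes. Among the 6177 genes that reached 10 in 3 or more libraries, the share was larger: 879 were called lower and 500 higher, with a median of -0.10. The 6 were Erp44, Manf, Calr, Pdia3, Ppib and Dnajb11. Erp44, which retrieves unassembled proteins to the ER, had a log2 fold change of -0.80 ± 0.13 (39.2 ± 5.18 in WT and 21.98 ± 2.096 in cDKO, adjusted p = 0.000299). Manf, a stress-induced factor of the ER, had -0.77 ± 0.14 (27.7 ± 4.39 and 15.7 ± 0.50, adjusted p = 0.000989), and Calr, the lectin chaperone calreticulin, had -0.76 ± 0.15 (145 ± 26.5 and 83.9 ± 4.51, adjusted p = 0.0017). Their cDKO levels were 20.74, 20.80 and 24.40 for Erp44, 15.83, 16.05 and 15.10 for Manf and 87.75, 78.92 and 84.92 for Calr, in C2, A1 and A2. In these 3 genes C2 did not stand apart from A1 and A2, and all 3 cDKO libraries were below all 16 WT libraries. The 3 genes were named for the largest called falls of their list, so this separation describes the calls and adds nothing to them. How many of all tested genes separate in this way was not counted. The promoters of Calr, Canx and Dnajc3 held the ERSE letters, of 14 promoters matched in this list, and Canx and Dnajc3 were not called in cDKO. In the degradation list below, Syvn1 and Derl3 held them, of 12 promoters matched, and neither was called in cDKO. In the translocation and N-glycosylation list, 0 of 22 matched promoters held them, and 10 of its 30 genes were called lower.

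Of 30 genes of translocation into the ER and N-glycosylation, 10 were called lower in cDKO and 0 higher (median -0.28), beside 6.85% and 5.09% of all genes. The lowest were Sec11c, a catalytic subunit of signal peptidase (-0.91 ± 0.22, adjusted p = 0.00618), Ddost, a subunit of oligosaccharyltransferase (-0.76 ± 0.13, adjusted p = 0.000405), and Ssr2, a subunit of the translocon-associated TRAP complex (-0.67 ± 0.12, adjusted p = 0.000452). Without A1 Sec11c lost its call (-0.71, adjusted p = 0.0976), and 7 of the 30 were called lower. The others were Stt3a, Ostc, Tram1, Dad1, Rpn2, Srp14 and Spcs2. Ddost, named for its called fall, stood at 71.07, 56.24 and 55.50 in cDKO against 85.22 to 138.06 in WT.

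Of 16 genes of ER-associated degradation, Os9 (-0.57 ± 0.16, adjusted p = 0.0178), a lectin that selects misfolded glycoproteins, and Derl2 (-0.56 ± 0.17, adjusted p = 0.0291), a channel component, were called lower and 0 higher in cDKO, and the median was -0.05. Over all genes the shares were 6.85% lower and 5.09% higher. Among the 6177 genes that reached 10 in 3 or more libraries, 879 were lower. The 2 calls in this list are near that larger share and describe single genes. Of 18 genes of transport between ER and Golgi, 3 were lower, namely Kdelr2, the receptor that returns ER proteins (-0.73 ± 0.13, adjusted p = 0.000707), and the COPII coat genes Sec13 (-0.60 ± 0.13, adjusted p = 0.0036) and Sar1b (-0.43 ± 0.14, adjusted p = 0.0486). The cargo adaptors Sec24a (0.48 ± 0.14, adjusted p = 0.0246) and Sec24b (0.41 ± 0.13, adjusted p = 0.0418) of the same coat were higher, so the list had no single direction. With 1 cDKO library left out, most of these calls were lost. Without C2 the adjusted p was 0.0767 for Derl2, 0.0514 for Sec13, 0.313 for Sar1b, 0.145 for Sec24a and 0.147 for Sec24b. Without A1 it was 0.0759 for Os9, 0.138 for Derl2, 0.0622 for Sec24a and 0.16 for Sec24b. Without A2 it was 0.326 for Os9 (-0.33), 0.102 for Derl2, 0.195 for Sar1b, 0.0872 for Sec24a and 0.0997 for Sec24b. Sec24b also lost its call without 1 of several WT libraries, and Sar1b without 1 of several WT libraries or the c-Maf cKO library B11. Of the 4 sensors 0 were called in cDKO by limma, with log2 fold changes of -0.55 ± 0.19 for Atf6 (adjusted p = 0.0536), -0.33 ± 0.21 for Atf6b (adjusted p = 0.347), -0.15 ± 0.35 for Ern1, which encodes IRE1 (adjusted p = 0.852), and 0.23 ± 0.34 for Eif2ak3, which encodes PERK (adjusted p = 0.744). In cDKO 1 of the 4 was called lower with the column set as a covariate, without trend and robust options, with only the groups compared, and without A6, A9 or B5, and 2 were with library quality weights.

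Few targets of ATF4 and CHOP were called. Of 21 tested (Cebpb was in the table and too low to test), 2 were higher and 2 lower in cDKO, and the median was 0.07. These counts are near the shares of 5.09% and 6.85% of all genes, so the calls describe single genes and not the list. For the average effect of Prdm1 loss the list median was 0.30, against 0.00 over all genes, with 8 of the 21 below 0. There 2 were called higher and 2 lower, beside 6.74% and 10.2% of all genes. In cDKO against c-Maf cKO the list median was 0.23, against -0.01 over all genes, with 8 of the 21 below 0. Ppp1r15a, which encodes GADD34, the phosphatase subunit that lets translation resume after stress, rose in cDKO with a log2 fold change of 0.97 ± 0.16 (adjusted p = 0.000254) and in Prdm1 cKO with 0.85 ± 0.16 (adjusted p = 0.00396). It ran from 93.13 to 152.95 in WT and was 147.09, 245.22 and 249.64 in Prdm1 cKO and 180.23, 220.51 and 290.03 in cDKO. Its call in cDKO held under 40 of 41 other settings. The exception was without both A1 and A2 (0.65), which leaves C2 alone in its group. In Prdm1 cKO it was lost without A6 (adjusted p = 0.0512), without A9 (adjusted p = 0.0661), with the macrophage marker score as a covariate (adjusted p = 0.136) and within column set 1 or against WT of letter A (adjusted p = 0.129 and 0.0952).

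Bbc3, which encodes the death-promoting protein PUMA, rose by 1.58 ± 0.34 in cDKO (adjusted p = 0.00281), with 4.42 in C2, 9.93 in A1 and 17.73 in A2 against 0.67 to 5.42 in WT; C2 was inside the WT range, and without A2 the value was 1.15 (adjusted p = 0.0876). Phgdh and Psat1, enzymes of serine synthesis that ATF4 can induce, had log2 fold changes of -0.88 ± 0.19 (adjusted p = 0.0029) and -0.79 ± 0.25 (adjusted p = 0.0393); Psat1 lost its call without any 1 of C2 (adjusted p = 0.181), A1 (adjusted p = 0.174) and A2 (adjusted p = 0.0543), and just so without A11 (adjusted p = 0.0511) or B5 (adjusted p = 0.0514). Phgdh was 61.79, 61.77 and 70.09 in cDKO, against 70.63 to 175.55 in WT. In Prdm1 cKO against WT, the lists gave 2 calls, Ppp1r15a and Sec24b (0.47 ± 0.13, adjusted p = 0.0454), both higher. They were 1 of 21 tested targets of ATF4 and CHOP and 1 of 18 transport genes, and the other lists gave none. Over all genes 1.58% were called higher and 1.87% lower there, so the 2 calls describe single genes and not the lists. The call of Sec24b held under 16 of 41 other settings, and without A6 the value was 0.30 (adjusted p = 0.347). In c-Maf cKO they gave 0.

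These list counts were sensitive to the same libraries and scale as the 10 genes. In cDKO all lower calls of the lists were lost when rescaled to the CD3 genes and without both A1 and A2, and all but 1, among the targets of ATF4 and CHOP, against WT of the same column set. With the erythroid marker score as a covariate, 4 of 20 folding genes, 7 of 30 translocation and glycosylation genes and 0 of 16 degradation genes were called lower in cDKO; for the average effect of Prdm1 loss these counts were 1, 6 and 0. With the column set as a covariate, 5 of 20 folding genes, 8 of 30 translocation and glycosylation genes and 2 of 16 degradation genes were called lower in cDKO. For the average effect of Prdm1 loss, folding genes went from 6 to 1 and translocation and glycosylation genes from 11 to 2. Lower calls over all 12251 genes fell too. With the column set they went from 839 to 439 in cDKO and from 1251 to 155 for the average. With the erythroid score they went to 300 in cDKO and 457 for the average. The lists were drawn up with earlier results of these data known, and their genes share functions and partly their regulators.

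**Figure D4:**
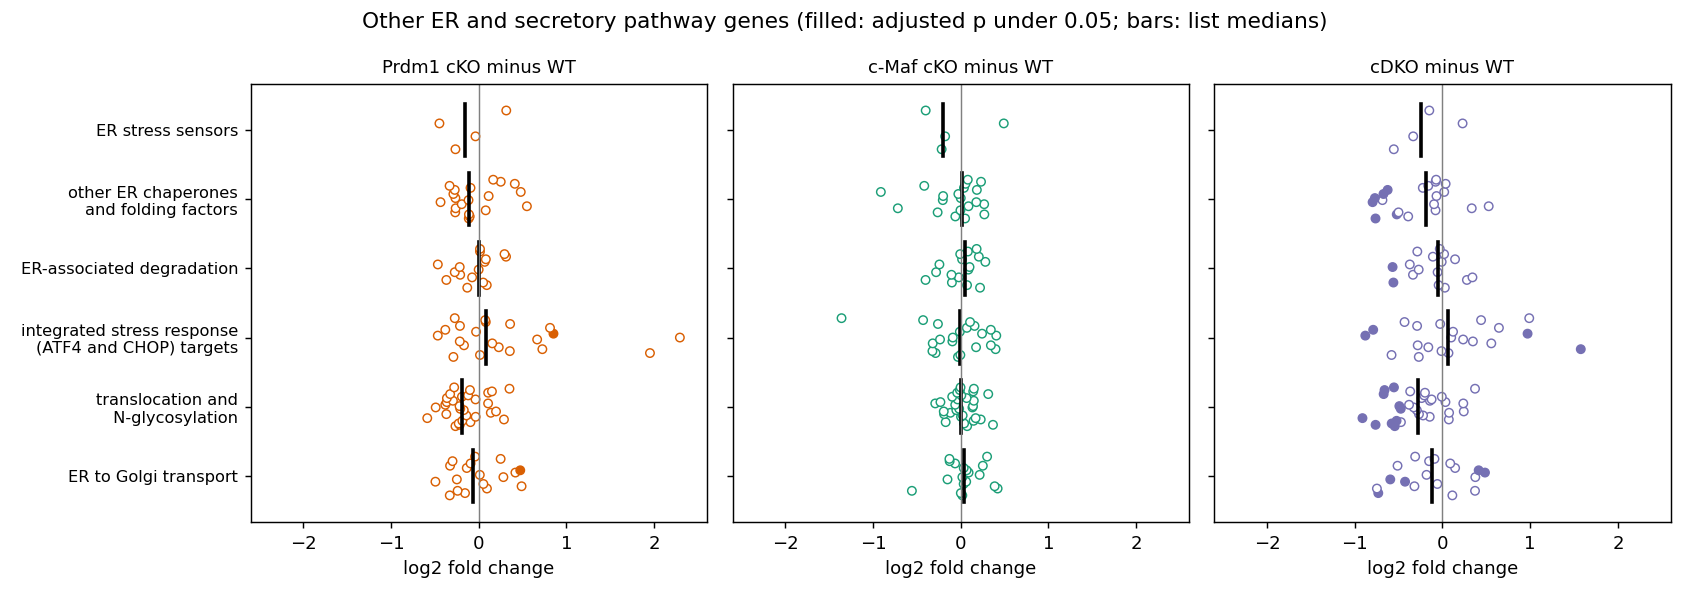
Log2 fold change against WT (x axis) of each tested gene of the 6 lists (y axis) in the 3 knockout groups; fill marks an adjusted p under 0.05, and bars are list medians. In cDKO 6 of 20 further chaperones and 10 of 30 translocation and glycosylation genes are filled, all below 0, and the c-Maf cKO panel has no filled point.

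Variation among WT libraries. Several of the chaperone genes varied with Hspa5 across the 16 WT libraries. Over 9 relations with Hspa5 on the log2 scale, 5 passed by Pearson r at a Benjamini-Hochberg adjusted p under 0.05 (two-sided permutation test, 100000 resamples). Atf4 had the highest Pearson r, 0.85 (p = 3e-05, adjusted p = 0.00027; Spearman's rho 0.81, permutation p = 0.00037), and r was 0.80 without B4 and B6, the libraries farthest from the median of Hspa5. Both genes differed among the column sets, which the permutation does not take into account, and after removing the mean of each set r was 0.58 for Atf4. Creld2 had r = 0.74 (permutation p = 0.00103, adjusted p = 0.00364) and rho = 0.71 (permutation p = 0.00243). Hsp90b1 had r = 0.72 (permutation p = 0.00139, adjusted p = 0.00364) and rho = 0.69 (permutation p = 0.00392). Pdia6 had r = 0.71 (permutation p = 0.00162, adjusted p = 0.00364) and rho = 0.63 (permutation p = 0.0114), and Sdf2l1 had r = 0.63 (permutation p = 0.0102, adjusted p = 0.0183) and rho = 0.65 (permutation p = 0.00808).

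Without B4 and B6, r was 0.45 for Creld2, 0.44 for Hsp90b1, 0.43 for Pdia6 and 0.55 for Sdf2l1, so the relations of Creld2, Hsp90b1 and Pdia6 rested in part on that pair, and that of Sdf2l1 less so. Within the 7 WT libraries of letter A, r was 0.72 for Atf4, 0.55 for Creld2, 0.66 for Hsp90b1, 0.74 for Pdia6 and 0.63 for Sdf2l1, and within the 9 of letter B it was 0.87, 0.81, 0.80, 0.67 and 0.87. Xbp1 (r = 0.38), Pdia4 (0.48), Dnajb9 (0.36) and Ddit3 (0.41) did not pass by Pearson r. By Spearman's rho Pdia4 did pass (0.60, permutation test, adjusted p = 0.0246), and Xbp1, Dnajb9 and Ddit3 did not. After removing the mean of each column set, r was 0.73 for Hsp90b1, 0.71 for Pdia6, 0.67 for Creld2 and 0.53 for Sdf2l1. It was then 0.60 for Pdia4, 0.55 for Xbp1, -0.01 for Dnajb9 and 0.02 for Ddit3. The 5 genes most like Hspa5 across WT libraries, of 4887 with a WT mean of at least 10, were Npm1 (r = 0.89), Atp5b (0.87), Calr (0.87), Cct8 (0.86) and Cct6a (0.86), and Atf4 came next. Of these only Calr is an ER chaperone; Npm1 encodes a nucleolar protein, Atp5b a subunit of the mitochondrial ATP synthase, and Cct8 and Cct6a subunits of the cytosolic chaperonin. These r values are a description over 16 libraries that share column sets.

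With the level of Prdm1 across WT libraries, r over 10 relations ran from -0.44 (Ddit3) to 0.39 (Sdf2l1), and 0 passed; no permutation p was under 0.05 before adjustment. Without B3 and B5, the libraries farthest from the median of Prdm1, r was -0.71 for Ddit3 and -0.67 for Dnajb9; within letter A it was -0.66 and -0.82, and within letter B -0.11 and 0.05. Dnajb9 and Ddit3 moved with the summary of 12 macrophage and monocyte markers (the mean of their log2 values). Ddit3 had r = 0.71 (permutation p = 0.00218, adjusted p = 0.0218 over 10 relations) and rho = 0.70 (permutation p = 0.00362). Dnajb9 had r = 0.66 (permutation p = 0.00545, adjusted p = 0.0272) and rho = 0.70 (permutation p = 0.00302). Atf4 had r = 0.56 (permutation p = 0.0253, adjusted p = 0.0807) and rho = 0.69 (permutation p = 0.00393, adjusted p = 0.0131). Without A11 and B4, r was 0.76 for Ddit3, 0.66 for Dnajb9 and 0.61 for Atf4. Within letters A and B, r was 0.82 and 0.51 for Ddit3 and 0.71 and 0.67 for Dnajb9.

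The summed macrophage markers ran from 52.06 to 2351 in WT (median 441), from 1375 to 4163 in Prdm1 cKO, from 201 to 1158 in c-Maf cKO and from 153 to 236 in cDKO, and none of the 12 was at 0 in all libraries of a group. Of the 12, 1 was called higher in Prdm1 cKO and 0 were called in cDKO. The mean level of Dnajb9 was above that of WT in Prdm1 cKO, where macrophage signal was high, and in cDKO, where it was within the WT range. With the macrophage marker score as a covariate, its log2 fold change was 0.48 in Prdm1 cKO (adjusted p = 0.507) and 0.65 in cDKO (adjusted p = 0.0474). The part of macrophages in the levels of Dnajb9 was not tested.

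**Figure D5:**
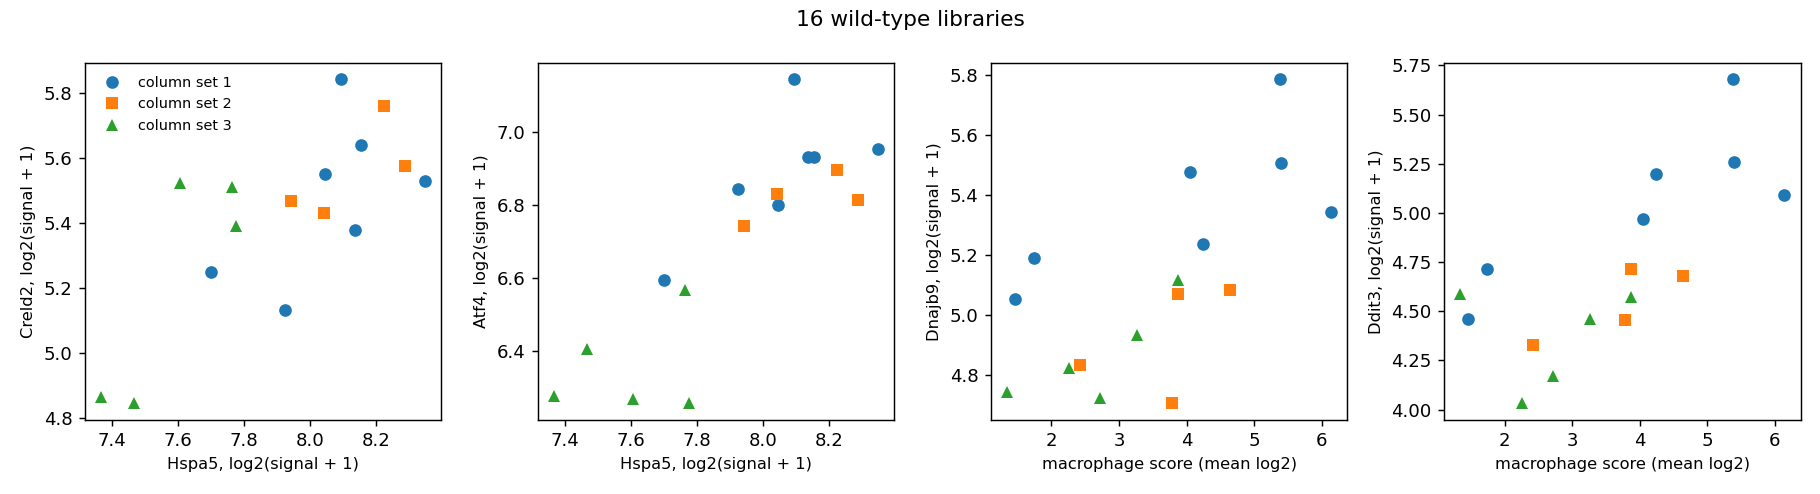
The 16 WT libraries on log2(signal + 1) axes: Creld2 and Atf4 against Hspa5, and Dnajb9 and Ddit3 against the mean log2 level of 12 macrophage and monocyte markers, with shapes and colours for the column sets. Libraries of column set 3 have the low Hspa5 and Atf4 levels, and the Pearson r of the 4 panels is 0.74, 0.85, 0.66 and 0.71.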

How the data were processed

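The deposited table holds the authors' normalised signal per gene symbol for 25 libraries made with an adapted SMART-Seq 2 protocol from lysed bulk cells, per the labels' protocols; the scale is not stated. Per the submitters' processing notes, TopHat, RSEM and DESeq were used with build mm9; the notes give no versions or order. Depth is therefore unknown, and no counting interval is given. Columns were assigned to genotypes by their names, with 0 columns unused; names carry no replicate number.

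The 12251 genes that reached 1 in 3 or more libraries were fitted with limma 3.58.1 in R 4.3.3 (trend and robust) on log2(value + 1), 4 groups and no covariate, with Benjamini-Hochberg adjustment. On simulated data for cDKO against WT, 200 of 12251 genes were changed, drawn only from those with higher WT means. Of these, 74% were recovered with a log2 change of 1 and 98% with a change of 2. Each library had independent noise of the WT spread, without shared shifts of column sets or unlike cDKO libraries. Recovery in the real data, and for genes of low value, may therefore be lower. The genes, lists and markers were chosen with earlier results of these data known. Named were the 10 genes, up to 3 called genes per list, direction and contrast by size, Prdm1 and Maf, and the 5 genes most correlated with Hspa5 over WT libraries (WT mean of at least 10); the other called folding and translocation genes and the 4 sensors were added after their values were seen. No identical columns were found (0 pairs). Alternatives covered the pseudocount, filter, scaling, covariates, fit options and libraries left out. Those by code letter, without A1 and A2 and with only some WT libraries, and the contrast of cDKO with Prdm1 cKO, were chosen after seeing the data. Promoters came from RefSeq (GRCm38.p6).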

Additional observations from a re-analysis of the deposited data

How the results depend on the processing

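No paired analysis was possible because the columns carry no replicate numbers. The number of genes called in Prdm1 cKO against WT was 423; it was 59 with the column set, 13 with the macrophage score, 224 with the erythroid score and 36 with the code letter as covariate, 33 against WT libraries of the same column set or of letter A, and 78 to 689 with 1 library left out (78 without A9, 110 without A6, 664 without A4, 689 without B3). In cDKO it was 1463; it was 591 with the erythroid score, 2634 with library quality weights, 69 without both A1 and A2, 329 against WT of the same column set, 795 against WT of letter A, and 511 (without A2) to 1697 with 1 library left out (738 without A1). In c-Maf cKO it was 0; it was 6 with a pseudocount of 0.1, 1 with a pseudocount of 10, 17 with no filter, 4 without trend and robust options, 1 with quality weights, with only the groups compared, without both A1 and A2 or with WT of the same column set, and 0 to 1 with 1 library left out. For the average effect of Prdm1 loss it was 2077; it was 395 with the column set, 762 with the erythroid score, 820 with the code letter, 668 without both A1 and A2, and 1389 to 2302 with 1 library left out. For cDKO against c-Maf cKO it was 1150; it was 132 with the column set, 341 with the erythroid score, 1852 with quality weights, 681 with only the groups compared, 601 with the code letter, 74 without both A1 and A2, and 432 (without A2) to 1312 with 1 library left out (617 without A1, 646 without B10, 690 without C1, 753 without B11). For the departure from additivity it was 1; it was 21 and 15 with pseudocounts of 0.1 and 10, 7 with no filter, 14 without trend and robust options, 4 with quality weights, 31 with the code letter, 0 with a minimum of 10, with the column set, with the macrophage score or without both A1 and A2, and 1 to 92 with 1 library left out (92 without A6). For cDKO against Prdm1 cKO it was 48; it was 103 with a pseudocount of 10, 77 with no filter, 10 with the erythroid score, 99 with quality weights, 95 with only the groups compared, 167 with the code letter, 0 with the column set, with the macrophage score or without both A1 and A2, and 3 (without A2) to 142 (without A6) with 1 library left out. The cause of these changes was not tested.

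Over 1610 values of the 10 genes in 4 contrasts under other settings, 64 lost a call, 24 gained one, and 91 turned sign without a call on either side. Hsp90b1 alone turned sign from a called value: its average effect of Prdm1 loss was 0.0917 when rescaled to the CD3 genes. On that scale the same contrast also turned for 6 named genes of the lists, to 0.0661 for Sar1b, 0.108 for Kdelr2, 0.217 for Sec13, 0.104 for Os9, 0.0258 for Ppib and 0.0275 for Manf. Of 1401 such values of the named list genes, 197 lost a call. Depth is not stated, each knockout has 3 libraries, and the smallest called change among the 10 genes was -0.47 (Hsp90b1, average effect of Prdm1 loss), so a missing call does not show that a level was unaltered.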
